A study of Mus musculus with 10 samples.

Results

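The heme synthesis enzymes were followed in spleens of mice immunized to develop proteoglycan (PG) induced arthritis, a model of rheumatoid arthritis. The members are 7 genes taken by gene symbol from the platform's table of probe sets: Alas2, Alad, Uros, Urod, Cpox, Ppox and Fech. They cover 7 of the 8 steps of the pathway, and the enzyme of the third step was not analysed here. The 7 genes have 17 probe sets among the 45037 on the array that are not controls. Of these 17, 14 lay above the median signal of their array on at least 2 arrays and entered the tests, with 23805 probe sets in all. All 7 genes kept at least 1 probe set, and the probe set with the highest mean stands for its gene. Of the 14 kept, 13 lay above the median on all 10 arrays, and the dimmer kept probe set of Ppox did so on 2.

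Spleen RNA of 10 female BALB/c mice was measured with 1 array per mouse, and the labels name the mice of a group as biological replicates. All mice received repeated intraperitoneal injections of cartilage PG in the adjuvant DDA, so no group is unimmunized, and the RNA came from a piece of each spleen at the end of the experiment. The old arthritic mice had labelled ages of 9 and 9 months and the old non-arthritic mice of 7 and 5 months. The young arthritic mice had labelled ages of 5 and 4 months and the young non-arthritic mice of 3, 3, 2 and 1 months. Whether these ages refer to the start of immunization or to the end is not stated in the labels. In both age groups the arthritic mice were the older ones, so arthritis and age cannot be told apart within an age group. A fit of arthritis status together with age in months gave the comparison called here at equal age.

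Signals are the authors' log2 values, on which a difference of 1 is a 2-fold difference in signal. With 10 arrays the precision of every comparison is limited, and the p-values rest on the spread between so few mice. On the first principal component of the kept probe sets, which carried 40.0% of the variance, old arthritic replicate 2 scored 52.6 and the next array 19.6. Every listed marker of B cells, T cells and macrophages with a named probe set passed the filter. Every listed erythroid marker with a named probe set also passed it, 11 of 14 genes. In whole spleen, fewer cells of a type and less RNA per cell cannot be told apart.

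Heme is an iron-containing ring that carries oxygen in hemoglobin and electrons in cytochromes. Its synthesis starts in the mitochondrion, continues in the cytosol and ends in the mitochondrion, where iron is inserted. Cells that build red cells make most of the body's heme together with the liver, and the mouse spleen holds erythroid precursors throughout life. Alas2 is the erythroid form of 5-aminolevulinate synthase, the rate-limiting first enzyme, and Alas1 is the form that other cells use. Alad joins aminolevulinate molecules to porphobilinogen, Uros closes the ring as uroporphyrinogen III and Urod removes carboxyl groups from it. Cpox and Ppox carry out the last oxidations, and Fech, ferrochelatase, inserts the iron.

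The sequences before the start sites of 4 members are shown because they hold, or lack, the short motifs of erythroid regulators. Whether the motifs bear on the signals was not tested. RefSeq on build GRCm38.p6 gave 8 windows for 6 of the 7 genes. Each run is the 250 bases before a start site, 5′ to 3′ on the strand of the gene, and capitals mark matches to either of a pair of motifs, searched on both strands. The motif GATAA, which reads TTATC on the other strand, is the core bound by GATA factors. The motif CACCC, which reads GGGTG on the other strand, is the core bound by factors of the Klf family. Positions count back from the start site, which follows position -1. The Alas2 window is chrX:150547167-150547416 on the plus strand.
Alas2: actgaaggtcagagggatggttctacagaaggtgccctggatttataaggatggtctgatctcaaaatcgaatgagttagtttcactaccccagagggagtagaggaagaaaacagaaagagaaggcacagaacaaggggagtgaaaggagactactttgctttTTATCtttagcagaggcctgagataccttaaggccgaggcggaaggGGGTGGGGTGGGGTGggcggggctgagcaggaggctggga
The Cpox window is chr16:58669958-58670207 on the plus strand.
Cpox: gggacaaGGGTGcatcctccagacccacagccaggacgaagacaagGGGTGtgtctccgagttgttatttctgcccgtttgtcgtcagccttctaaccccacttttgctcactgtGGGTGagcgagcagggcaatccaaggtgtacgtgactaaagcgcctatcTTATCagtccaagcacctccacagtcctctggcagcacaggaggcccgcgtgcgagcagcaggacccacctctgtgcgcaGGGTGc
The window of one of the Uros start sites is chr7:133702501-133702750 on the minus strand.
Uros: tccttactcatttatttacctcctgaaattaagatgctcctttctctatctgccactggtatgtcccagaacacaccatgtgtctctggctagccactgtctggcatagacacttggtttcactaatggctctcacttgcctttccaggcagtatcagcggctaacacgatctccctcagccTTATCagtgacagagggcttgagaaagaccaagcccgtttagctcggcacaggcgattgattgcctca
The Urod window is chr4:116994414-116994663 on the minus strand.
Urod: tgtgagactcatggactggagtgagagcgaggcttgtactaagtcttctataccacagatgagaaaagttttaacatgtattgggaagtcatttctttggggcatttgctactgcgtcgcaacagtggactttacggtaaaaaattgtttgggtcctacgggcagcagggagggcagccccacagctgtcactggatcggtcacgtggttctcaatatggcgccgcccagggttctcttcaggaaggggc
The windows of Alas2 and Cpox each hold 1 GATAA match, both beginning at position -86, and the Uros window holds 1 at -68. The Alas2 window also holds 3 CACCC matches, beginning at -40, -35 and -30 in one run. The Cpox window holds 4 CACCC matches, at -243, -204, -135 and -6. The Urod window holds neither motif, as do the Ppox window, 1 Alad window and the other Uros window. The other Alad window holds 1 CACCC match, at -47. Among all 32851 windows of this length, 22.6% hold a GATAA match and 52.0% a CACCC match. A match describes letters only, and its absence says nothing about a factor.

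Alas2, the first enzyme, was low in a single young mouse. It had 13.53 and 13.72 in the old arthritic mice, against 13.53 and 13.32 in the old non-arthritic mice. Alas2 had 13.10 and 13.63 in the young arthritic mice, against 13.05, 11.92, 13.05 and 13.11 in the young non-arthritic mice. Young non-arthritic replicate 2 lay alone at the low end, and the arthritic and non-arthritic mice overlapped in both age groups. The range over the 10 mice was 1.80 on the log2 scale, or 3.48-fold. Group means were 13.62 ± 0.14 in old arthritic, 13.43 ± 0.14 in old non-arthritic, 13.37 ± 0.37 in young arthritic (SD, n = 2 each) and 12.78 ± 0.58 in young non-arthritic mice (SD, n = 4).

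**Figure D1:**
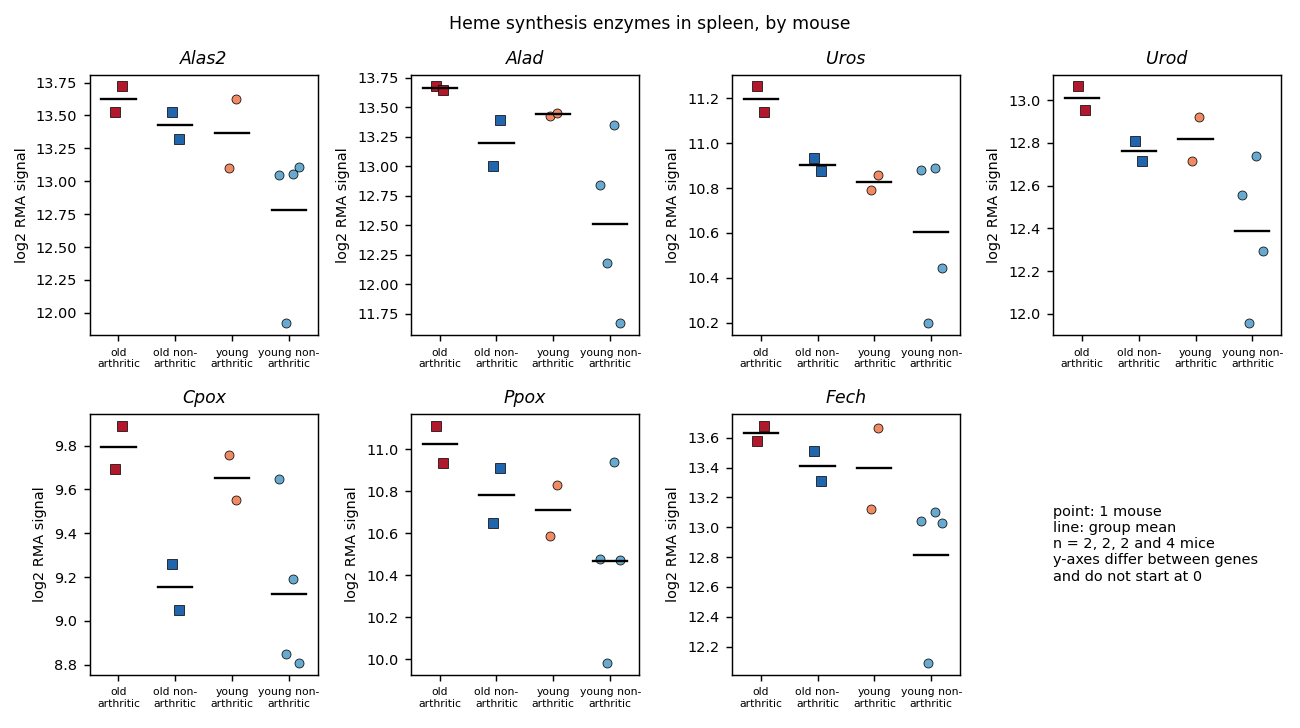
Log2 RMA signal (y-axis) of the 7 heme synthesis enzymes in the 4 groups (x-axis), where each point is 1 mouse, arthritic mice are in red shades, non-arthritic mice in blue shades, and lines are group means. Young non-arthritic replicate 2 is lowest for Alas2 at 11.92 and for Fech at 12.09, and the old arthritic mice have the highest group mean in each panel.

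The cytosolic enzymes varied over the same mice, with some differences among them. Alad had 13.68 and 13.65 in the old arthritic mice, against 13.00 and 13.39 in the old non-arthritic mice. It had 13.43 and 13.45 in the young arthritic mice, against 12.85, 12.18, 13.35 and 11.67 in the young non-arthritic mice. Alad was the one member whose 4 arthritic mice all lay above all 6 non-arthritic mice. Of the 23805 probe sets tested, 10.4% had that property, as did 1 of the 14 kept probe sets of the enzymes, a share near the background. The other Alad probe set did not have it, with young non-arthritic replicate 3 at 10.17 and the young arthritic mice at 9.88 and 9.87. Alad also had the widest range of the 7, 2.01 on the log2 scale or 4.03-fold, and its lowest mouse was young non-arthritic replicate 4, labelled 1 month old.

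Uros had 11.25 and 11.14 in the old arthritic mice, against 10.93 and 10.88 in the old non-arthritic mice. It had 10.79 and 10.86 in the young arthritic mice, against 10.88, 10.20, 10.89 and 10.44 in the young non-arthritic mice. The young groups overlapped, and the old arthritic pair lay above all other mice. Urod, the decarboxylase that follows, had 13.06 and 12.95 in the old arthritic mice, against 12.81 and 12.71 in the old non-arthritic mice. It had 12.72 and 12.92 in the young arthritic mice, against 12.56, 11.96, 12.74 and 12.29 in the young non-arthritic mice. Young non-arthritic replicates 2 and 4 were the lowest and the next lowest mouse for both genes.

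The enzymes of the last oxidations and of iron insertion return to the mitochondrion. Cpox had 9.69 and 9.89 in the old arthritic mice, against 9.26 and 9.05 in the old non-arthritic mice. It had 9.76 and 9.55 in the young arthritic mice, against 9.65, 8.85, 9.19 and 8.81 in the young non-arthritic mice. The arthritic mice lay above all but 1 of the non-arthritic mice, young non-arthritic replicate 1. Ppox had 11.11 and 10.93 in the old arthritic mice, against 10.65 and 10.91 in the old non-arthritic mice. It had 10.59 and 10.83 in the young arthritic mice, against 10.48, 9.98, 10.94 and 10.47 in the young non-arthritic mice. The young groups overlapped. Fech had 13.58 and 13.68 in the old arthritic mice, against 13.51 and 13.31 in the old non-arthritic mice. It had 13.12 and 13.67 in the young arthritic mice, against 13.04, 12.09, 13.11 and 13.03 in the young non-arthritic mice. Both young arthritic mice lay above the young non-arthritic mice, replicate 1 by a narrow margin, and replicate 2 of the non-arthritic mice was again far below the others. In another kept Fech probe set the young groups overlapped, with young arthritic replicate 1 at 12.25 and young non-arthritic replicate 1 at 12.61.

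In order of group means, the old arthritic mice stood highest and the young non-arthritic mice lowest for all 7 enzymes. The groups between them took a different order in different genes. The old non-arthritic mice came second for Alas2, Uros, Ppox and Fech, and the young arthritic mice came second for Alad, Urod and Cpox. These middle groups were not tested against each other, and their ranges overlapped for Alas2, Urod, Ppox and Fech. Group means with this order are a description, since no pair of groups that was tested differed for any of the 7 after adjustment.

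Between old arthritic and old non-arthritic mice, no member passed an adjusted p of 0.05 in the limma fit. Over all kept probe sets 0.0714% passed, and 18.6% had an unadjusted p under 0.05. The fitted difference was positive for all 7 enzymes, with a median of 0.25 on the log2 scale against 0.05 over all kept probe sets. Cpox alone of the 7 had an unadjusted p under 0.05, with a log2 difference of 0.64 (standard error 0.25, adjusted p = 0.2268 in limma). Its other kept probe set had 0.69 (standard error 0.18, adjusted p = 0.12 in limma), with signals of 9.43 and 9.46 in old arthritic against 8.95 and 8.58 in old non-arthritic mice. The second Uros probe set had the smallest p of the 14, with 0.44 (standard error 0.10, adjusted p = 0.1052 in limma) and signals of 7.40 and 7.52 in old arthritic against 7.04 and 7.01 in old non-arthritic mice, while the brighter one had 0.29 (standard error 0.21). Thus 3 of the 14 probe sets had an unadjusted p under 0.05, both kept ones of Cpox and this one. Alas2 had 0.20, with a 95% interval from -0.63 to 1.03, so a difference of up to 1 on the log2 scale in favour of arthritic mice lies within it.

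Arthritic against non-arthritic young mice gave a median difference over the members of 0.53, against 0.09 over all kept probe sets. The median was 0.30 with young non-arthritic replicate 2 left out. No member passed the adjusted threshold in limma, where 0.311% of all kept probe sets did. Alad, Urod and Cpox, 3 of the 7 genes, had an unadjusted p under 0.05, as did 18.2% of all kept probe sets. Alad had a log2 difference of 0.93 (standard error 0.38, adjusted p = 0.2468 in limma). Urod had 0.43 (standard error 0.19, adjusted p = 0.2696 in limma) and Cpox 0.53 (standard error 0.22, adjusted p = 0.2458 in limma). The other kept Cpox probe set had 0.08 (standard error 0.15), and the mean of the kept Cpox probe sets gave 0.31. Alas2 and Fech had 0.58 each, with standard errors of 0.32 and 0.28, and without young non-arthritic replicate 2 they had 0.30 and 0.34. For Alad, leaving out one array at a time gave values between 0.65, with replicate 4 of the young non-arthritic mice left out, and 1.21, with replicate 3 left out.

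The arthritis differences of old and young mice did not differ for any member after adjustment in limma, and neither did they for any kept probe set (0% called). An unadjusted p under 0.05 was found for 3.10% of all kept probe sets and for none of the 7 genes. Of the 14 kept probe sets of the members, 2 had such a p. The second Cpox probe set had a log2 difference between old arthritic and old non-arthritic mice that was 0.60 above that of the young mice (standard error 0.23), and the second Uros probe set one that was 0.34 above (standard error 0.14). The probe sets with the higher signal had 0.11 (standard error 0.33) for Cpox and 0.07 (standard error 0.28) for Uros, so the probe sets of these genes were unlike in this respect.

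At equal age, arthritic and non-arthritic mice had positive differences in all 7 enzymes, with a median of 0.25 against 0.09 over all kept probe sets. Neither the size of this median nor all of the signs held when arrays or scaling were changed. Without young arthritic replicate 2 the median was 0.06, with Alas2 at -0.02 and Fech at -0.02, and without young arthritic replicate 1 it was 0.39. Without young non-arthritic replicate 2 it was 0.12. When quantile normalization was applied again it was 0.08, with Uros at -0.07 and Ppox at 0.00, and array weights gave 0.14. No member was called at an adjusted p of 0.05 in limma, where 2.26% of all kept probe sets were. Cpox had the smallest p of the members, with a log2 difference of 0.47 (standard error 0.18, 95% interval 0.06 to 0.88, adjusted p = 0.1702 in limma). It was the 1 gene of 7 with an unadjusted p under 0.05, which 22.9% of all kept probe sets had. The other kept Cpox probe set had 0.20 (standard error 0.17, adjusted p = 0.5116 in limma), and the mean of the kept Cpox probe sets gave 0.33. With array weights, which give less weight to noisier arrays, Cpox passed the threshold at 0.52 (adjusted p = 0.02384 in limma), and without young non-arthritic replicate 1 it did so at 0.55 (adjusted p = 0.04856). Array weights called 4857 of all 23805 kept probe sets, against 538 in the main fit, so the Cpox call does not stand out there. Without young non-arthritic replicate 1, 562 were called. Alas2 had 0.25 (95% interval -0.46 to 0.96), and leaving out one array at a time gave values between -0.02, with young arthritic replicate 2 left out, and 0.45, with old non-arthritic replicate 1 left out. Uros had 0.07 (95% interval -0.30 to 0.44), and with one array left out it lay between 0.00 and 0.12.

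Between old and young non-arthritic mice, 6 of the 7 enzymes had differences of 0.30 or more, and Cpox had 0.03 (95% interval -0.46 to 0.52). The median over the members was 0.38, against -0.02 over all kept probe sets, and it was 0.23 with young non-arthritic replicate 2 left out. The sign of Cpox turned, to -0.08, with old non-arthritic replicate 1 left out. No member passed the adjusted threshold in limma, nor did any kept probe set (0%), and no member gene had an unadjusted p under 0.05, against 3.19% of all kept probe sets. One Fech probe set of the 14 had such a p, with 0.64 (standard error 0.28). Alas2 had 0.64 (standard error 0.32, 95% interval -0.07 to 1.36, adjusted p = 0.9974 in limma), Alad 0.68 (standard error 0.38) and Fech 0.60 (standard error 0.28). Without young non-arthritic replicate 2 the values were 0.36 for Alas2 and 0.35 for Fech. Alad had 0.40 when replicate 4 of that group was left out.

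With age in months fitted beside arthritis, the slope was positive for all 7 enzymes, with a median of 0.07 per month on the log2 scale against -0.01 over all kept probe sets. The median was 0.04 with old non-arthritic replicate 1 left out. Uros alone had an unadjusted p under 0.05, at 0.07 per month (standard error 0.03, adjusted p = 0.4874 in limma), beside 9.98% of all kept probe sets. After adjustment 0.0042% of all kept probe sets, which is 1, passed, and no member did.

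**Figure D2:**
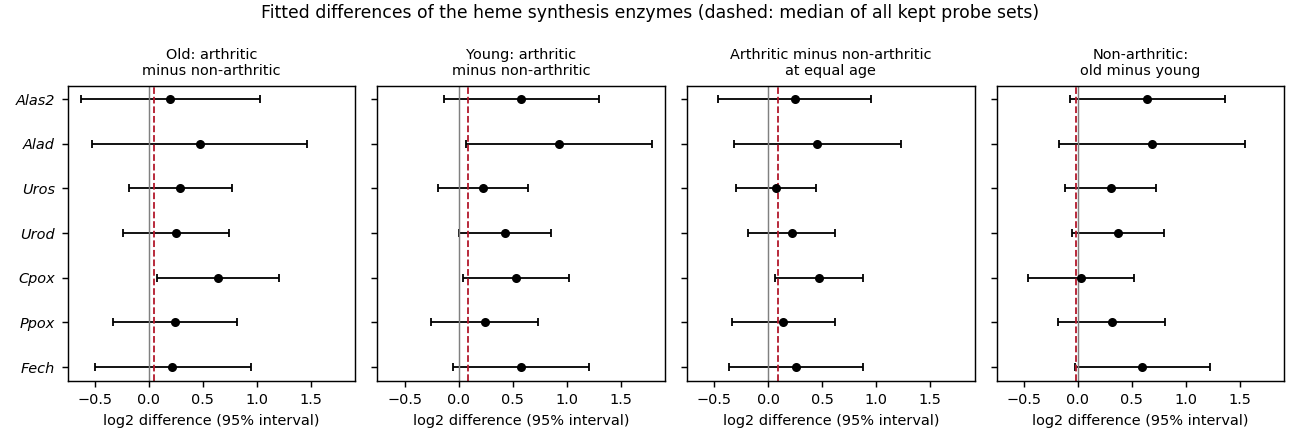
Fitted log2 differences (x-axes) of the 7 enzymes (y-axis) in 4 comparisons, where points are estimates, bars 95% intervals from limma, and dashed lines the median over all kept probe sets. The estimates lie to the right of 0 in each panel, most of the intervals include 0, and the Cpox interval at equal age runs from 0.06 to 0.88.

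The members varied together from mouse to mouse. Over the 21 pairs of members the Pearson correlation across the 10 mice ran from 0.49 to 0.99 with a median of 0.83, a description in which all pairs share the same arrays. Fech followed Alas2 most closely, with r = 0.99 (adjusted permutation p = 6e-05, of which the unadjusted value, 1e-05, is the smallest that 100000 resamples can give) and rho = 0.92 (adjusted permutation p = 0.0039). Without old arthritic replicate 2 and young non-arthritic replicate 2, the mice farthest from the Alas2 median, r was still 0.99. It was also 0.99 for deviations from the group means. By the brightest Fech probe set, the signals of the first and the last enzyme thus rose and fell together over the mice. The relation was not computed for the other kept Fech probe sets. In one of them young non-arthritic replicate 1 had 12.61, above old non-arthritic replicate 1 at 12.56. Alas2 had 13.05 and 13.53 in these mice, so the close relation may not hold for every Fech probe set. The r for deviations from the group means includes young non-arthritic replicate 2 and was not computed without it. Among the other young non-arthritic mice the ranks differed, as replicate 4 was highest for Alas2 (13.11) and lowest for Fech (13.03).

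Urod had r = 0.90 with Alas2 (adjusted permutation p = 0.00204) and rho = 0.78 (adjusted permutation p = 0.0296), and r = 0.72 without the same pair of mice. Uros had r = 0.83 (adjusted permutation p = 0.0076) but rho = 0.53 (adjusted permutation p = 0.149). Ppox likewise had r = 0.83 (adjusted permutation p = 0.00913) and rho = 0.53 (adjusted permutation p = 0.149). For Uros and Ppox r was 0.50 without the pair of mice, and without young non-arthritic replicate 2 alone it was 0.61 for Uros (adjusted permutation p = 0.161) and 0.55 for Ppox (adjusted permutation p = 0.188). The calls of Uros and Ppox therefore rest on that mouse. Urod had r = 0.75 (adjusted permutation p = 0.0405) without it, and Fech 0.99. Alad had r = 0.62 and Cpox r = 0.58 (adjusted permutation p = 0.0668 each), and without the pair r was 0.41 for Alad and 0.18 for Cpox. All 6 relations are two-sided and adjusted together.

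**Figure D3:**
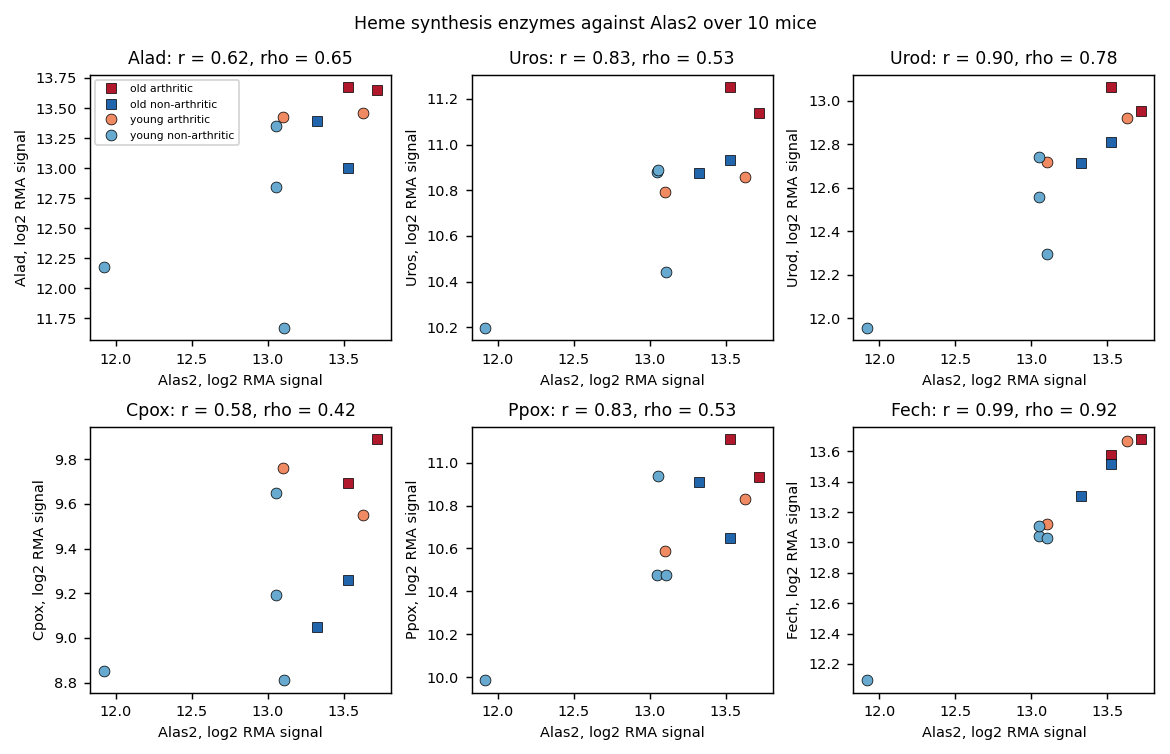
Log2 signal of 6 enzymes (y-axes) against the log2 signal of Alas2 (x-axes), with 1 point per mouse, old mice as squares, young mice as circles, arthritic mice in red shades and the others in blue. Fech lies on a line with Alas2 (r = 0.99), while the Alad and Cpox panels (r = 0.62 and 0.58) have young non-arthritic replicate 4 low at a middling Alas2 signal.

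Different probe sets of one gene mostly varied alike over the mice, and their ranks were not compared. The Pearson correlation with the brightest probe set was 0.98 for Alad and Urod, 0.96 for Ppox, 0.95 and 0.93 for Fech, 0.79 for Uros and 0.71 for Cpox. These values include the low young non-arthritic replicate 2. The 3 probe sets below the filter, 1 each of Cpox, Ppox and Fech, had signals under the array median on all 10 arrays.

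Young non-arthritic replicate 2, labelled 3 months old, had the lowest signal of the 10 mice for Alas2, Uros, Urod, Ppox and Fech, which is 5 of the 7 genes and 10 of the 14 kept probe sets. Over all kept probe sets, 10.2% were lowest in that mouse. This count was chosen after the values were seen. The mean deviation of the 7 enzymes from their means over all mice was -0.84 in that mouse and -0.46 in young non-arthritic replicate 4. It was 0.41 and 0.42 in the old arthritic mice, against 0.09 and 0.08 in the old non-arthritic mice. It was 0.07 and 0.27 in the young arthritic mice, against -0.08 and 0.03 in young non-arthritic replicates 1 and 3.

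Markers of erythroid cells moved with the enzymes. The list holds the transcription factors Klf1 and Gata1, the Epo receptor and red cell membrane and blood group genes, and its 11 measured genes had a mean deviation of -0.91 in young non-arthritic replicate 2 and -0.38 in replicate 4. The deviation was 0.40 in both old arthritic mice, against 0.13 and 0.09 in the old non-arthritic mice. It was 0.00 and 0.22 in the young arthritic mice, against -0.05 and 0.09 in young non-arthritic replicates 1 and 3. The summed linear signal of the 11 genes ran from 62790 to 64370 in old arthritic and from 52980 to 54450 in old non-arthritic mice. It ran from 50470 to 57370 in young arthritic and from 26920 to 52960 in young non-arthritic mice. Gata1 had the smallest p of the erythroid markers for arthritis, with log2 differences of 0.51 (standard error 0.19) in old mice, 0.48 (standard error 0.17) in young mice and 0.41 (standard error 0.15, adjusted p = 0.1538 in limma) at equal age. In each of these comparisons 1 of the 11 markers had an unadjusted p under 0.05 in limma. Over all kept probe sets 18.6%, 18.2% and 22.9% had such a p, a larger share. No erythroid marker passed the adjusted threshold in any of the 6 comparisons in limma, and the part of erythroid cells in the differences of the enzymes was not tested. Of 13 genes on the list of globins and their chaperone, 6 had a probe set named for that gene alone. Among these Hbb-b2 alone passed the filter, by a probe set that was lowest in young non-arthritic replicate 2, at 10.25. The dim Hbb-b2 probe set below the filter was highest in that mouse, at 6.30.

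Cell division genes were also low in the same mice, with a mean deviation over 17 genes of -0.57 in young non-arthritic replicate 2 and -0.39 in replicate 4. They stood at 0.33 and 0.38 in the old arthritic mice, against -0.01 and -0.05 in the old non-arthritic mice. Mitochondrial respiration genes, which other cells of the spleen also use, did not have this low point. Their 19 genes had 0.13 and 0.09 in the young arthritic mice, against -0.03, -0.08, -0.09 and -0.09 in the young non-arthritic mice. They had 0.08 and 0.21 in the old arthritic mice, against -0.11 and -0.10 in the old non-arthritic mice. Of the 19, 12 were higher in arthritic mice at an unadjusted p under 0.05 in limma among old mice, 13 among young mice and 15 at equal age. Over all kept probe sets 18.6%, 18.2% and 22.9% had such a p in either direction. At equal age 1 of the 19 passed the adjusted threshold in limma. The part of these lists in the enzyme values was not tested.

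**Figure D4:**
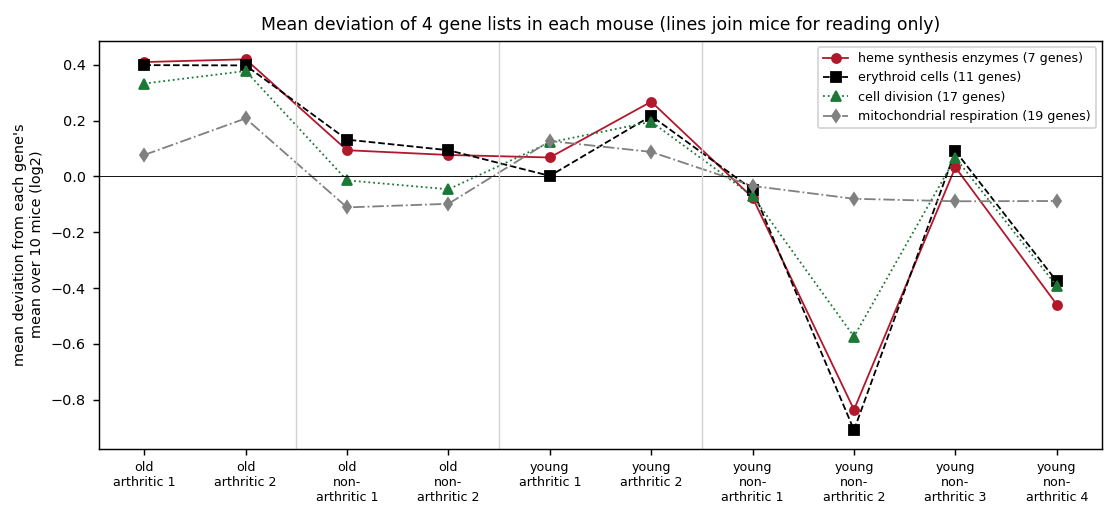
Mean deviation of 4 gene lists from each gene's mean over the 10 mice (y-axis, log2) in each mouse (x-axis), where the lines only join the points of a list. The heme synthesis enzymes (-0.84) and the erythroid markers (-0.91) are lowest in young non-arthritic replicate 2, where the respiration genes are at -0.08.

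Markers of neutrophils and of megakaryocytes and platelets also stood apart in some of the comparisons made for the enzymes. The 7 neutrophil genes had a median log2 difference of 1.20 between old arthritic and old non-arthritic mice and of 1.11 at equal age, with an unadjusted p under 0.05 for all 7 in both. Over all kept probe sets 18.6% and 22.9% had such a p. In young mice the median was 0.38, and none of the 7 had such a p. Between old and young non-arthritic mice it was -1.04, with all 7 lower at that level, against 3.19% of all kept probe sets. The summed linear signal of the neutrophil genes ran from 112600 to 136400 in old arthritic and from 63930 to 71870 in old non-arthritic mice. It ran from 115200 to 165100 in young arthritic and from 82360 to 135200 in young non-arthritic mice. The 6 megakaryocyte and platelet genes had a median difference of 0.66 at equal age, with an unadjusted p under 0.05 for all 6, against 22.9% of all kept probe sets. All 6 also had such a p in young mice (median 0.49), and 1 had it in old mice (median 0.34). Between old and young non-arthritic mice the median was -0.36, with 3 of the 6 lower at that level, against 3.19% of all kept probe sets. For age in months all 6 megakaryocyte and platelet genes were lower at that level, against 9.98% of all kept probe sets. None of either list passed the adjusted threshold in limma. The summed signal of the megakaryocyte and platelet genes ran from 33850 to 35950 in old arthritic and from 27710 to 28530 in old non-arthritic mice. It ran from 43150 to 50320 in young arthritic and from 30550 to 41230 in young non-arthritic mice. Signals of the enzymes are relative to all transcripts of the spleen, and the part of these cells in their values was not tested.

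Alas1, the first enzyme in cells other than erythroid ones, did not share the low point of Alas2. Its brighter probe set had 10.55 and 10.60 in the old arthritic mice, against 10.09 and 10.16 in the old non-arthritic mice. It had 10.49 and 10.99 in the young arthritic mice, against 10.45, 10.49, 10.62 and 10.16 in the young non-arthritic mice, where replicate 2 lay within the range of the others. At equal age its log2 difference was 0.50 (standard error 0.15, adjusted p = 0.09081 in limma). The dimmer Alas1 probe set passed the threshold at equal age, with 0.41 (standard error 0.07, adjusted p = 0.02927 in limma) and signals of 7.51, 7.56, 7.64 and 7.73 in the arthritic mice, against 7.17 to 7.46 in the non-arthritic mice. Over all kept probe sets 2.26% passed at equal age, and 10.4% had every arthritic above every non-arthritic mouse. The brighter Alas1 probe set did not separate the mice in this way, with young non-arthritic replicate 3 at 10.62. Whether Alas1 and Alas2 differed in their response was not tested. Between old and young non-arthritic mice the difference of the brighter probe set was -0.31 (standard error 0.16), where Alas2 had 0.64.

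The partners of the pathway are carriers, transporters and assembly factors that supply glycine, iron and iron-sulfur clusters or move intermediates and heme. Of 23 listed partners, Alas1 included, 20 were measured, and none passed the adjusted threshold in any of the 6 comparisons in limma by its brightest probe set. In old mice 6 of the 20 had an unadjusted p under 0.05, all higher in arthritic mice, where 18.6% of all kept probe sets had one. The smallest p values belonged to Tspo, a porphyrin-binding protein of the outer mitochondrial membrane, at 0.33 (standard error 0.12), the heme-binding protein Hebp1 at 0.27 (standard error 0.10) and the porphyrin transporter Abcb6 at 0.47 (standard error 0.18). In young mice 6 of the 20 were higher in arthritic mice at that level and 1 lower, beside 18.2% of all kept probe sets. Slc25a39, a mitochondrial glutathione carrier, had 0.40 (standard error 0.14) there, and Flvcr2, a choline transporter also described as a heme carrier, had -0.47 (standard error 0.17). At equal age 4 of the 20 were higher and none lower, a smaller share than the 22.9% of all kept probe sets. They were Alas1, Tspo at 0.28 (standard error 0.10), Clpx, the mitochondrial protease subunit that activates aminolevulinate synthase, at 0.21 (standard error 0.09), and the heme exporter Flvcr1 at 0.29 (standard error 0.11). Between old and young non-arthritic mice 1 was higher, Slc25a39 at 0.33 (standard error 0.14), and for age in months 1 was, the glycine carrier Slc25a38. For arthritis, the median over the 20 was 0.20 among old mice (0.05 over all kept probe sets), 0.25 among young mice (0.09) and 0.17 at equal age (0.09). Between old and young non-arthritic mice it was 0.01, against 0.38 for the enzymes themselves.

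Slc25a37, mitoferrin, which brings iron to Fech, had a pattern close to that of Alas2, with 13.23 and 13.26 in the old arthritic mice, against 13.22 and 13.09 in the old non-arthritic mice. It had 12.84 and 13.20 in the young arthritic mice, against 12.89, 11.97, 13.03 and 12.74 in the young non-arthritic mice. Again replicate 2 of the young non-arthritic mice was lowest. Its difference at equal age was 0.09 (standard error 0.25).

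Genes that use, break down or sense heme had medians closer to those of all kept probe sets than the enzymes had. Of 18 measured, none passed the adjusted threshold in limma in any comparison. At equal age 6 of the 18 had an unadjusted p under 0.05, as did 22.9% of all kept probe sets, all 6 higher in arthritic mice, among them the hemoglobin scavenger Hp at 1.07 (standard error 0.31) and Nfe2l2, a transcription factor of the oxidative stress response, at 0.21 (standard error 0.08). Heme oxygenase Hmox1, which opens the heme ring, had 0.05 (standard error 0.16). Eif2ak1, the heme-sensing kinase that slows globin translation when heme is short, had 0.13 (standard error 0.15). The median over the 18 was 0.14 at equal age and 0.00 between old and young non-arthritic mice, against 0.09 and -0.02 over all kept probe sets.

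Among 11870 named genes, those whose signal over the 10 mice was most like that of Alas2 were Bpgm (r = 0.989), Isca1 (r = 0.987), Tent5c (r = 0.979), Cdr2 (r = 0.976) and Slc25a37 (r = 0.973), where the median r over all genes was 0.023. For Fech they were Isca1 (r = 0.994), Cdr2, Bpgm, Tmcc2 and Trim10, and 3 of these 5 are also on the Alas2 list. For Uros they were Klf1 (r = 0.989), Rhd, Tspan33, Blvrb and Ccna2. For Urod they were Sox6 (r = 0.994), Abcg2, Acp1, Ccnb2 and Car2. The nearest genes of Alad were Slc66a2 (r = 0.963), Cdca4, Arhgap11a, Arel1 and Reep4, those of Cpox were Rfc4 (r = 0.968), Cetn4, Eri1, Nipa1 and Ska3, and those of Ppox were Arrb1 (r = 0.962), Kel, Slc22a23, Grina and Ranbp10. These correlations are over mice that share the low young non-arthritic replicate 2 and are given without a test.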

How the data were processed

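Affymetrix expression arrays were hybridized with spleen RNA, 1 array per mouse. The authors deposited log2 signals of each probe set made with RMA (background adjustment, quantile normalization and summary of probes), so that signals are relative to the other transcripts of a spleen. The RMA version is not stated in the sources used. Control rows (64) were left out, and a probe set was kept if above its array's median on at least 2 arrays.

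The 4 group means were estimated with limma (version 3.58.1, R 4.3.3; lmFit and eBayes, 6 residual degrees of freedom), and arthritis with age in months in a second model (7 residual degrees of freedom). P-values were adjusted by Benjamini-Hochberg over 23805 probe sets (threshold 0.05). Both models were tested on simulated data. Correlations had two-sided permutation tests (100000 resamples). Members and lists were chosen with earlier results of these data known. Also named were Alas1, the 5 genes most correlated with each member and up to 4 genes with the smallest p of a list. Hmox1, Eif2ak1 and Hbb-b2 were named after their values were seen. Alternatives covered the filter, normalization, spread, array weights, replicate block, probe sets, arrays fitted and each array left out. The methods of the study do not describe the arrays.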

Additional observations from a re-analysis of the deposited data

Results flagged for a closer look

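In the 4 young non-arthritic mice, replicate 2 lay far below the other 3 for Alas2 and for Fech. The gap between its Alas2 signal and the next lowest mouse, 1.13 on the log2 scale, was 0.954 of the whole range of the group. For Fech the gap of 0.94 was 0.923 of the range. Both shares are above the critical value of Dixon's test at the 95% level for 4 samples. The highest and the lowest mouse were looked at for each of the 7 enzymes, and chance alone marks about 5% of groups. Alas2 and Fech had r = 0.99 over the mice, so these are not separate observations.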

How the results depend on the processing

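Across the alternatives, the 7 enzymes kept their call in all comparisons but one. At equal age, 1 member, Cpox, passed the threshold with array weights (0.52, adjusted p = 0.02384 in limma). With each array left out in turn the number of members called at equal age was 0 to 1, and the 1 was Cpox without young non-arthritic replicate 1 (adjusted p = 0.04856 in limma). In that fit 562 of all kept probe sets were called. Array weights called 4857 of all kept probe sets in that comparison, against 538 without them, and the cause was not tested. Of the other counts of members called, 59 stayed at 0 with an array left out and 58 under the other settings. Medians of the members moved by less than the pooled spread of the members' mean between mice of a group (0.29), yet several moved by over 1.5 times. With one array left out the median ran from 0.06 to 0.39 at equal age, from 0.30 to 0.65 for arthritis in young mice, from 0.23 to 0.49 for old against young non-arthritic mice, from 0.04 to 0.08 per month for age, and from -0.30 to -0.04 for the difference of the arthritis effects. Quantile normalization applied again gave 0.08 at equal age and 0.16 for arthritis in old mice. The relation with Alas2 no longer passed the threshold without young non-arthritic replicate 2, a setting added after seeing the data, for Uros (r = 0.61) and Ppox (r = 0.55). With that array or old arthritic replicate 2 left out, r lay between 0.61 and 0.81 for Uros and between 0.55 and 0.82 for Ppox. Replicate numbers were not taken to pair the mice. Deviations of mice with the same number correlated between -0.53 and 0.36. In groups of 2 the deviations of the mice mirror each other, so these values cannot show whether mice were paired. With the replicate block no member was called (0) and the median difference between old and young non-arthritic mice was 0.55, against 0.38 without it. The difference of the arthritis effects uses all groups, so no fit of fewer groups was run for it.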
